A study of Mus musculus with 6 samples.

Results

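The genes described here lie side by side on distal mouse chromosome 11, from Pitpnc1 to C1qtnf1 in the GRCm38.p6 gene order. They were taken as every gene in that interval with a probe set that names it alone, leaving out small nucleolar RNA genes of the Snord type, and the probe set with the highest mean stood for a gene with several. This gave 150 of the 19937 genes measured. The members were chosen by the measured intensities of TMP195 tumour 2, in which runs of these genes were high, so the values of that tumour against the other 5 are given as a description and were not tested.

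Whole mammary tumours came from 6 female FVBN mice carrying the MMTV-PyMT transgene, in which a mammary tumour virus promoter drives polyoma middle T antigen in mammary epithelium. TMP195, an inhibitor of class IIa histone deacetylases, was given to 3 mice at 50 mg/kg once a day into the abdomen, and 3 mice received the vehicle DMSO. The labels put the mice at 75 to 90 days of age when dosing began, and give the dosing time as 5 days in one place and 2 weeks in another. Each mouse gave 1 snap-frozen tumour, whose RNA was hybridised to 1 Affymetrix array, so a tumour is a separate animal. With 6 arrays, precision is limited by their number.

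Neighbouring genes on a mouse chromosome mostly have promoters of their own and serve unrelated functions. The interval holds several genes known from cancer biology. Grb2 is the adaptor that couples phosphorylated receptors and Shc to Ras, and polyoma middle T antigen recruits it through Shc. Birc5 encodes survivin, an inhibitor of apoptosis that also acts in cell division, and Prkca encodes protein kinase C alpha, a kinase activated by diacylglycerol.

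A gene was called raised in a tumour when that tumour lay above every other tumour and at least 1.3-fold above the median of the other 5. Lowered genes were called in the same way in the other direction. In TMP195 tumour 2, 62 of the 150 genes were raised, or 41.3%, where 8.6% of all genes were raised in that tumour. Over the whole array, 150 genes, or 0.752%, stood more than 2-fold higher in TMP195 tumour 2 than in each of the other 5, and 30 of them were in the interval. Of the interval's genes 9 were lowered, or 6.0%, against 6.78% of all genes. These shares describe how the interval was found and support nothing further.

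The raised genes were not spread evenly. They fell into 3 stretches, whose ends were set after the values were seen: Pitpnc1 to Fam20a with 14 of 19 genes raised, Rpl38 to Tsen54 with 26 of 42, and Tnrc6c to C1qtnf1 with 18 of 20. Between them lay 22 genes from 1700012B07Rik to 4932435O22Rik, of which 1 was raised, and 47 genes from Llgl2 to 2900041M22Rik, of which 3 were raised. The plot of differences in chromosome order shows the 3 stretches as blocks with abrupt ends.

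**Figure D1:**
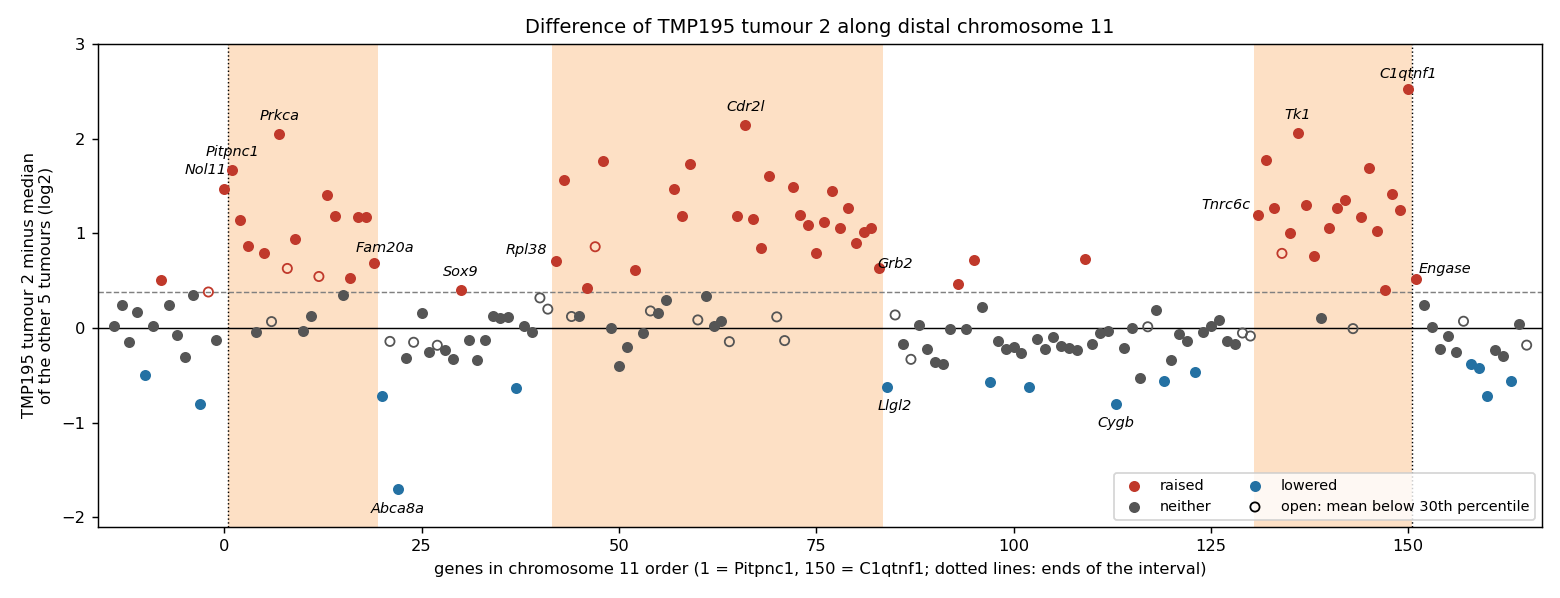
Log2 intensity of TMP195 tumour 2 minus the median of the other 5 tumours for each of the 150 genes in chromosome order, with 15 genes on either side of the interval. Shading marks the 3 stretches, the dashed line a 1.3-fold difference, and open points genes whose mean lies below the 30th percentile of all genes. Raised genes reach 2.53 at C1qtnf1 and crowd into the shaded stretches, where 58 of the 62 raised genes lie.

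Promoter sequences are shown for genes near the end of the second stretch and the start of the third that have a window in the RefSeq table (GRCm38.p6), and for Tk1 and Birc5, the cell-cycle genes among those raised. Each window holds 300 bases, most of them before the gene's start, 5′ to 3′ on the gene's strand. Capitals mark every match, on either strand, to the GC box, spelled GGGCGG, or to the CCAAT box, searched by those letters. Also searched on both strands were the TATA box, spelled TATAAA in this search, and the cell-cycle homology element, for which the letters were TTTGAA, and neither had a match in these 6 windows. None of the matches shown overlap. Tsen54 is the last raised gene before a step, and Recql5 lies beyond it. Septin9 lies before the next step, and Tnrc6c is the first raised gene after it; Septin9 has 4 windows in the table, of which the first listed is shown.
Tsen54: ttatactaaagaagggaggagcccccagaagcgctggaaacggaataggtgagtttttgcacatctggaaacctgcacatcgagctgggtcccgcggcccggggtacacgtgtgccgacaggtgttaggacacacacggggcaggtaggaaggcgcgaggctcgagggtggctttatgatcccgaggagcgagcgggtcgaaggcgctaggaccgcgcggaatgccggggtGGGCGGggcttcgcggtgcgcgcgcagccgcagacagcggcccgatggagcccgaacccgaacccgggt
Recql5: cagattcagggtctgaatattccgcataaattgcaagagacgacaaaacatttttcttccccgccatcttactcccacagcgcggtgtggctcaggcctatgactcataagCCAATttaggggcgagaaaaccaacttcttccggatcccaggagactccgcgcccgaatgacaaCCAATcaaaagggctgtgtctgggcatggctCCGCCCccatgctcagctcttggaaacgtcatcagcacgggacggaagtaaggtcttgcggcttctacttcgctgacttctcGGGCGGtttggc
Septin9: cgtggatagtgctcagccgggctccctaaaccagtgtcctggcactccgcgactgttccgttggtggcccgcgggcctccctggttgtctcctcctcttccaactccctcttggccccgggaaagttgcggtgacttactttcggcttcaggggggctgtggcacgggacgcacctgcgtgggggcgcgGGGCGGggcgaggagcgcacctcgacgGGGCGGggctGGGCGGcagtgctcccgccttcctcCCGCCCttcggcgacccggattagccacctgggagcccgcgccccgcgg
Tnrc6c: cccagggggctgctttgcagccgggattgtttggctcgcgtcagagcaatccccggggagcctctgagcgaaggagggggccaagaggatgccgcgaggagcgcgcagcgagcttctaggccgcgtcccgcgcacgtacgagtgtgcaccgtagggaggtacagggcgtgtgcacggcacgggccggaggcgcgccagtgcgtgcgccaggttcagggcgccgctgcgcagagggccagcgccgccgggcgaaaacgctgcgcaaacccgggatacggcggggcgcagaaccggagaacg
Tk1: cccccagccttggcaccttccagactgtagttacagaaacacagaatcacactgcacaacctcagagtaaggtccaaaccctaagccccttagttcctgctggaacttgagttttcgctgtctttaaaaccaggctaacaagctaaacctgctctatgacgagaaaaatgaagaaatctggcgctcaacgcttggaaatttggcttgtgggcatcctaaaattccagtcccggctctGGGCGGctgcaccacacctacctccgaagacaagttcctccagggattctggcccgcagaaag
Birc5: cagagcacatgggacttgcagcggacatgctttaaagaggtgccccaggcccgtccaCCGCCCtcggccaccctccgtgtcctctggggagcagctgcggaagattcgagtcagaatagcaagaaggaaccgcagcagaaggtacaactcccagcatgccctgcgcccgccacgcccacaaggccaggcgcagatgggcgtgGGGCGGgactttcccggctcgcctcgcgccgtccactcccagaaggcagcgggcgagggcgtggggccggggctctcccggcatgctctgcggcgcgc

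The windows lie at chr11:115814489-115814788 (plus strand) for Tsen54, chr11:115933443-115933742 (minus strand) for Recql5, chr11:117199411-117199710 (plus strand) for Septin9. Those of the other genes lie at chr11:117654039-117654338 (plus strand) for Tnrc6c, chr11:117825965-117826264 (minus strand) for Tk1, chr11:117848987-117849286 (plus strand) for Birc5. Tnrc6c, which was raised, has 0 matches and Tsen54, which was raised, 1 GC box, beside 4 GC boxes in Septin9 and 2 GC boxes and 2 CCAAT boxes in Recql5, which were not raised. Tk1 has 1 GC box and Birc5 has 2. A window was found for 110 of the 150 genes. A GC box stood in 32 of the 50 raised genes with a window (64.0%), in 27 of the 60 not raised, and in 35.91% of the 27025 genes of the table. Among unraised genes at or above the 50th percentile of intensity, 53.57% of 28 had one. The CCAAT box stood in 32.0% of raised and 33.33% of unraised genes, against 37.92% of all. The TATA box stood in 8.0% of raised and 13.33% of unraised genes, against 14.16% of all, and the cell-cycle homology element in 6.0% of raised and 13.33% of unraised genes, against 18.11% of all. A match is a stretch of letters, not a binding site.

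The first stretch opened with Pitpnc1, a phosphatidylinositol transfer protein. Its log2 intensity was 10.23 in TMP195 tumour 2, against 8.57 and 8.63 in TMP195 tumours 1 and 3 and 8.75, 8.43 and 8.55 in vehicle tumours 1, 2 and 3. Only TMP195 tumour 2 was high, 3.17-fold above the median of the others, whose SD was 0.12 on the log2 scale (n = 5). Prkca was at 11.19 in TMP195 tumour 2, against 9.14 and 9.41 in TMP195 tumours 1 and 3 and 9.94, 9.0 and 9.10 in the vehicle tumours. Vehicle tumour 1 was the next highest, and TMP195 tumour 2 lay 4.14-fold above the median. Prkar1a, the regulatory subunit of protein kinase A, was at 11.15 in TMP195 tumour 2, against 9.97 and 10.16 in the other TMP195 tumours and 10.04, 9.95 and 9.98 in the vehicle tumours. The 5 other tumours lay close together, with an SD of 0.08. Gna13, a G protein alpha subunit, was at 10.70 in TMP195 tumour 2, against 9.18 and 9.41 in the other TMP195 tumours and 9.59, 9.21 and 9.30 in the vehicle tumours. Further raised genes here were Psmd12, a proteasome subunit (a difference of 1.14 from the median of the other 5), Amz2, a metallopeptidase (1.18), Wipi1, an autophagy protein (1.17), the helicase gene Helz (0.86) and the centrosomal gene Cep112 (0.95).

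Axin2, a feedback inhibitor of Wnt signalling, lies inside this stretch and was not raised. It was at 5.28 in TMP195 tumour 2, against 5.35 and 5.17 in the other TMP195 tumours and 5.33, 5.31 and 5.20 in the vehicle tumours. The next gene, Rgs9, differed by 0.12, and the calcium channel subunits Cacng1 and Cacng5 by -0.04 and 0.07, while their relative Cacng4 between them was raised by 0.79. Slc16a6, a monocarboxylate transporter, was highest in TMP195 tumour 2 but differed from the median by less than 1.3-fold (0.35). The stretch ended at Fam20a, a secretory pathway pseudokinase, at 11.23 in TMP195 tumour 2, against 10.74 and 10.55 in the other TMP195 tumours and 10.24, 10.53 and 10.71 in the vehicle tumours. Its neighbour 1700012B07Rik differed by -0.72.

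The 22 genes that followed held the ABC transporter cluster, of which none of the 5 members was raised, where 8.6% of all genes were. Abca8a, a lipid transporter gene, was at 3.95 in TMP195 tumour 2, against 6.04 and 5.65 in the other TMP195 tumours and 5.29, 4.92 and 6.32 in the vehicle tumours. TMP195 tumour 2 was thus the lowest, and the other 5 spread with an SD of 0.56. Abca9 differed by -0.31, Abca8b by -0.14, Abca6 by -0.15 and Abca5 by 0.16. The potassium channel genes Kcnj16 and Kcnj2 differed by -0.18 and -0.23, and Map2k6, a kinase of the p38 pathway, by -0.25. Sox9, a transcription factor of progenitor cells, was the raised gene among these 22. It was at 10.58 in TMP195 tumour 2, against 10.11 and 10.42 in the other TMP195 tumours and 10.50, 10.16 and 10.18 in the vehicle tumours. Vehicle tumour 1 was nearly as high, so Sox9 stood 1.32-fold above the median but close to the nearest tumour.

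The second stretch ran from Rpl38, a ribosomal protein gene, to Tsen54, a subunit of the transfer RNA splicing endonuclease. Rpl38 was at 11.94 in TMP195 tumour 2, against 11.25 and 11.23 in the other TMP195 tumours and 11.19, 11.17 and 11.23 in the vehicle tumours. The other 5 tumours had an SD of 0.03 in this gene. Cdr2l, which encodes a coiled-coil protein, had the largest difference here. It was at 8.85 in TMP195 tumour 2, against 6.51 and 7.16 in the other TMP195 tumours and 6.79, 6.43 and 6.71 in the vehicle tumours, 4.41-fold above the median. The orphan receptor gene Gprc5c was raised by 1.76, Tmem104 by 1.73, Kctd2 by 1.61, Ttyh2 by 1.56 and Armc7 by 1.49.

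Grb2 lies near the end of this stretch and was at 8.42 in TMP195 tumour 2, against 7.33 and 7.61 in the other TMP195 tumours and 7.56, 7.52 and 7.32 in the vehicle tumours. TMP195 tumour 2 stood apart from 5 tumours that lay close together, at 1.87-fold their median. Slc9a3r1, the scaffold protein NHERF1, was at 11.11 in TMP195 tumour 2, against 9.52 and 9.69 in the other TMP195 tumours and 9.85, 9.64 and 9.44 in the vehicle tumours. Sumo2, a ubiquitin-like modifier, was at 12.22 in TMP195 tumour 2, against 11.32 and 11.52 in the other TMP195 tumours and 11.62, 11.43 and 11.33 in the vehicle tumours. In both genes TMP195 tumour 2 lay far above the other 5. The nuclear pore gene Nup85 (1.12), the ATP synthase subunit Atp5h (0.84) and the mitochondrial ribosomal genes Mrps7 (1.06) and Mrpl58 (1.15) were raised as well.

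The longest unbroken run of the interval lay at the end of this stretch. Among genes at or above the 30th percentile of mean intensity, a run was 3 or more successive raised genes. Hid1 to Tsen54 made a run of 17 genes. In all, 7 runs touched the interval and held 49 genes, 47 of them of the interval, and Nol11 and Engase just outside it. Elsewhere in the genome TMP195 tumour 2 had 32 runs with 98 genes, none longer than 4 genes, and in the remaining tumours no run had more than 3 genes anywhere. Where TMP195 tumour 2 was highest, no other tumour could be called raised, so runs of other tumours were barred there.

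The Cd300 leukocyte receptor genes lie inside the second stretch, and 1 of 7, Cd300ld, was raised. It was at 5.49 in TMP195 tumour 2, against 4.64 and 4.75 in the other TMP195 tumours and 5.40, 4.88 and 5.11 in the vehicle tumours, so vehicle tumour 1 came close. Cd300a, an inhibitory receptor, differed by -0.0004 and Cd300lb by -0.40, with Cd300c at -0.20, Cd300c2 at -0.05, Cd300e at 0.18 and Cd300lf at 0.29. These are receptors of myeloid and other leukocytes. The macrophage marker list, 8 of 8 genes measured, averaged 8.38 in TMP195 tumour 2 and from 8.24 to 8.60 in the other 5 tumours.

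After Tsen54 the sign turned at the next gene. Tsen54 was at 7.91 in TMP195 tumour 2, against 7.26 and 7.42 in the other TMP195 tumours and 7.39, 7.27 and 7.08 in the vehicle tumours. Llgl2, a cell polarity protein, was at 7.04 in TMP195 tumour 2, against 7.62 and 7.86 in the other TMP195 tumours and 7.88, 7.67 and 7.56 in the vehicle tumours. One neighbour was thus highest and the other lowest in the same tumour. The 47 genes up to 2900041M22Rik had a median difference of -0.14 in TMP195 tumour 2. In 22 of these 47 genes TMP195 tumour 2 was below every other tumour by any size. This held for 22.4% of all genes and for 421 of the 1413 genes in the rest of chromosome 11. The 47 genes are what lay between stretches drawn after the values were seen, so their shares are description only. The call of lowered was met by 6 of the 47, or 12.8%, where 6.78% of all genes and 9.55% of the rest of chromosome 11 met it. These 6 were Llgl2, Mrpl38, Srp68, Cygb, Mxra7 and Mfsd11.

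Several genes with cancer roles lie among these 47. Itgb4, the laminin receptor subunit integrin beta 4, was at 8.89 in TMP195 tumour 2, against 9.25 and 9.30 in the other TMP195 tumours and 9.57, 8.85 and 9.15 in the vehicle tumours. Srsf2, a splicing factor, was at 10.49 in TMP195 tumour 2, against 10.62 and 10.73 in the other TMP195 tumours and 10.59, 10.76 and 10.62 in the vehicle tumours. Septin9, a cytoskeletal GTPase, was at 10.04 in TMP195 tumour 2, against 10.15 and 10.17 in the other TMP195 tumours and 10.44, 10.26 and 10.18 in the vehicle tumours. Each of these 3 genes lay within 1.3-fold of the median of the other tumours. Jmjd6, an oxygenase, differed by -0.34 and the ubiquitin ligase gene Rnf157 by -0.19. Sphk1, which makes the lipid messenger sphingosine 1-phosphate, was the exception. It was at 6.44 in TMP195 tumour 2, against 5.85 and 5.73 in the other TMP195 tumours and 5.71, 5.72 and 5.71 in the vehicle tumours. Sphk1 was raised alone, with its neighbours Prpsap1 at -0.24 and Ube2o at -0.17. The other raised genes among the 47 were Trim47, a ubiquitin ligase (0.72), and Unc13d, a granule release factor (0.47). In both another tumour came close. Unc13d was at 5.11 in TMP195 tumour 2 and 5.05 in TMP195 tumour 3, and Trim47 at 7.33 in TMP195 tumour 2 and 7.17 in vehicle tumour 1.

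Cygb, which encodes cytoglobin, was at 7.47 in TMP195 tumour 2, against 8.27 and 8.05 in the other TMP195 tumours and 8.39, 7.89 and 8.68 in the vehicle tumours. The fibroblast marker list averaged 9.34 in TMP195 tumour 2, 10.00 and 9.71 in the other TMP195 tumours and 9.82, 9.42 and 10.14 in the vehicle tumours. The adipocyte list averaged 4.62 in TMP195 tumour 2 and from 5.82 to 8.61 in the others, with 7 of 8 markers measured. Cygb and Abca8a were thus lowest in the tumour with the lowest fibroblast and adipocyte levels, and the part of these cells in the values was not tested. In whole tumours, fewer cells of a type and less RNA per cell cannot be told apart. Srp68, a subunit of the signal recognition particle, and Mrpl38, a mitochondrial ribosomal protein, differed by -0.62 and -0.58, and Mfsd11 and Mxra7 by -0.47 and -0.56. St6galnac2, a sialyltransferase, differed by -0.53 and Cpsf4l, among the 22 genes after Fam20a, by -0.64.

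The third stretch began at Tnrc6c, a protein of microRNA silencing, and ran to the end of the interval. Tnrc6c was at 8.93 in TMP195 tumour 2, against 7.74 and 7.89 in the other TMP195 tumours and 7.89, 7.44 and 7.72 in the vehicle tumours. All 15 genes of this stretch at or above the 50th percentile of intensity were raised. Tk1, the thymidine kinase of the DNA salvage pathway, was at 9.83 in TMP195 tumour 2, against 7.57 and 8.13 in the other TMP195 tumours and 8.14, 7.77 and 7.43 in the vehicle tumours. That was 4.17-fold above the median. Birc5 was at 8.36 in TMP195 tumour 2, against 7.22 and 7.60 in the other TMP195 tumours and 7.69, 7.64 and 7.22 in the vehicle tumours. TMP195 tumour 2 was highest in both cell-cycle genes.

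Tk1 and Birc5 ran against the other division genes of the same tumour. The proliferation list, with 11 of 12 genes measured, averaged 7.65 in TMP195 tumour 2, 8.18 and 8.41 in the other TMP195 tumours and 8.23, 8.66 and 8.22 in the vehicle tumours. All 11 genes were lowered in TMP195 tumour 2, where 6.78% of all genes were, with a median difference of -0.61 over the list. Kpna2, a nuclear import factor that lies just before the interval, was at 8.67 in TMP195 tumour 2, against 9.19 and 9.61 in the other TMP195 tumours and 9.47, 9.53 and 9.22 in the vehicle tumours. Of 5 genes of nuclear and division roles listed for this region, Kpna2 lies outside the interval and was lowered, and the 4 inside it, Tk1, Birc5, Nup85 and Sumo2, were raised, where 8.6% of all genes and 48 of the 50 brighter genes of the stretches were.

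Of the 20 genes of the third stretch 18 were raised, whatever their role. Socs3, a suppressor of cytokine receptor signalling, was at 7.74 in TMP195 tumour 2, against 6.28 and 6.47 in the other TMP195 tumours and 6.48, 6.54 and 6.58 in the vehicle tumours. Usp36, a nucleolar deubiquitinase, was at 9.79 in TMP195 tumour 2, against 8.10 and 8.34 in the other TMP195 tumours and 8.37, 8.02 and 8.09 in the vehicle tumours. Timp2, an inhibitor of matrix metalloproteinases, was at 10.72 in TMP195 tumour 2, against 9.57 and 9.51 in the other TMP195 tumours and 9.75, 9.75 and 9.70 in the vehicle tumours. None of the 5 other tumours came near TMP195 tumour 2 in these genes. Lgals3bp, a secreted galectin-binding glycoprotein, was at 11.49 in TMP195 tumour 2, against 10.00 and 10.08 in the other TMP195 tumours and 10.25, 9.26 and 10.21 in the vehicle tumours. Here vehicle tumour 2 was low as well as TMP195 tumour 2 high. Cyth1, an exchange factor for ARF GTPases, differed by 1.17, Tmc6 and Tmc8, transmembrane channel-like proteins, by 1.77 and 1.26, and the threonine aldolase gene Tha1 by 1.06.

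C1qtnf1, a secreted protein related to complement C1q, closed the interval with its largest difference. It was at 8.47 in TMP195 tumour 2, against 5.89 and 6.05 in the other TMP195 tumours and 5.86, 6.26 and 5.94 in the vehicle tumours. This was 5.77-fold above a median around which the other 5 had an SD of 0.16. The ends of the interval did not mark the ends of the raised genes exactly. Nol11, a nucleolar protein just before Pitpnc1, differed by 1.47. The 4 genes before it differed by -0.13 (Bptf), 0.38 (1810010H24Rik), -0.81 (Kpna2) and 0.35 (Smurf2). Of these 4, 1810010H24Rik also met the call of raised, at low intensity. Engase, just after C1qtnf1, differed by 0.52, and the 4 genes after it by 0.24 (Rbfox3), 0.01 (Enpp7), -0.22 (Cbx2) and -0.08 (Cbx8).

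Of 31 cancer-related genes listed with earlier results of these data known, 24 were members of the interval. In TMP195 tumour 2, 16 of the 24 were raised, where 41.3% of the interval, 71.6% of the 3 stretches and 8.6% of all genes were. The median difference of the 24 was 0.85, beside 0.12 over the interval, 0.95 over the stretches and 0.007 over all genes. The interval was chosen for high values in this tumour, so these numbers describe the list and support nothing further. Of the 24, those raised were Pitpnc1, Prkca, Gna13, Prkar1a, Sox9, Slc9a3r1, Sumo2, Grb2, Sphk1, Tk1, Birc5, Socs3, Cyth1, Usp36, Timp2 and Lgals3bp. Axin2, Map2k6, Llgl2, Itgb4, Rnf157, Jmjd6, Srsf2 and Septin9 were not raised. H3f3b, Galk1 and Cd79b were listed but had no probe set meeting the rule and were not analysed here, and Ddx5, Kpna2, Bptf and Smurf2 lie before Pitpnc1.

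**Figure D2:**
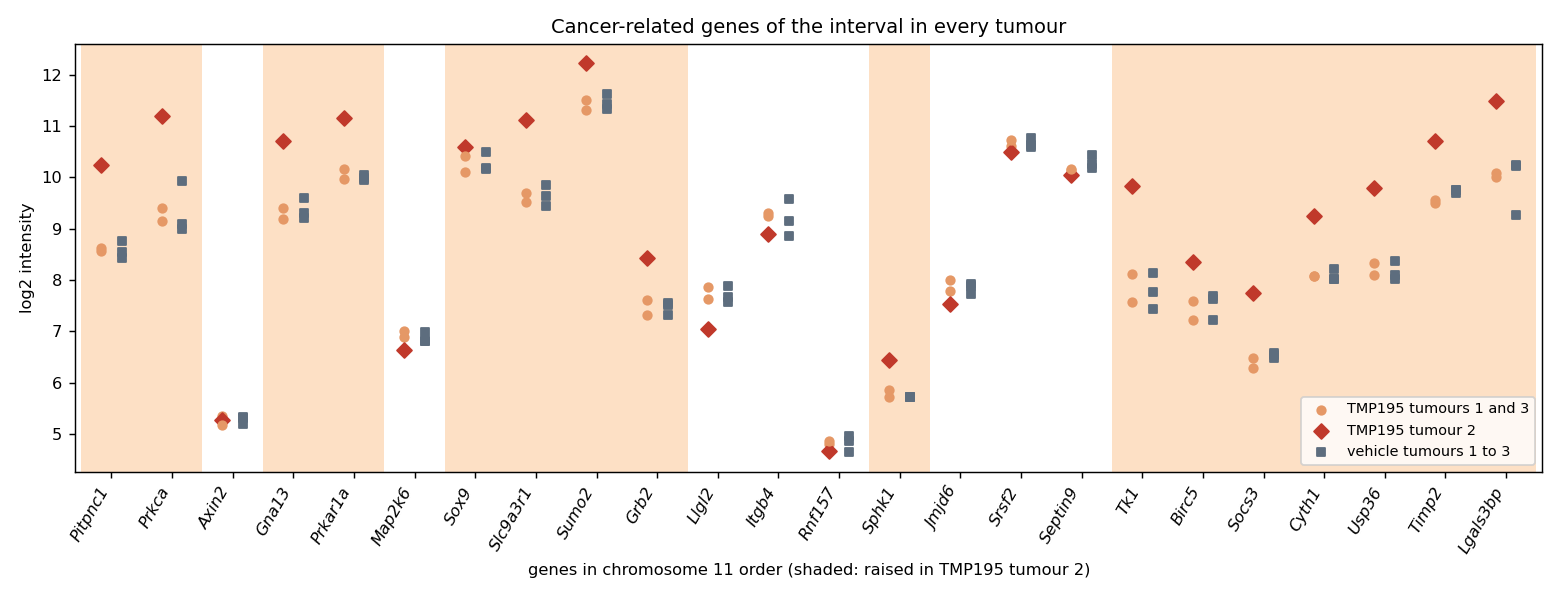
Log2 intensity of the 24 cancer-related genes of the interval in each tumour, in chromosome order, with TMP195 tumours left of vehicle tumours for each gene. Shaded genes were raised in TMP195 tumour 2 (red diamonds), as in Tk1, where it stood at 9.83 and the other 5 tumours at 7.43 to 8.14; levels of different genes come from different probe sets and are not comparable.

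The stretches were drawn around the raised genes, so the following counts by intensity describe them and support nothing further. At or above the 50th percentile of mean intensity over all genes, 48 of 50 genes were raised, and the exceptions, Slc16a6 and Fads6, were highest in TMP195 tumour 2 as well, by 0.35 and 0.34 over the median of the others. Below it, 10 of 31 were raised. All 21 remaining unraised genes of the stretches lay below the 50th percentile, among them Axin2, Rgs9 and 6 of the 7 Cd300 genes. The percentile is that of the probe set's mean over all 6 tumours, TMP195 tumour 2 included, so a raised gene is placed slightly higher by its own rise. Fads6 and Btbd17 lay only just inside it, at percentiles 50.12 and 50.55. Across the 81 genes of the stretches, which share the arrays, the median of the other 5 tumours and the difference of TMP195 tumour 2 had a Spearman correlation of 0.601, and across the 50 brighter genes one of -0.204. Between the stretches 2 of 41 brighter genes were raised, where 1005 of all 9969 brighter genes were.

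The shift was of similar size in the 3 stretches, which is description only, since they were drawn around the raised genes. Over genes at or above the 50th percentile the median difference in TMP195 tumour 2 was 1.17 from Pitpnc1 to Fam20a (n = 10), 1.15 from Rpl38 to Tsen54 (n = 25) and 1.26 from Tnrc6c to C1qtnf1 (n = 15). These are 2.26-fold, 2.22-fold and 2.40-fold. Over the 3 stretches together the interquartile range of these 50 genes was 1.02 to 1.46. A typical gene among them had an SD of 0.13 over the other 5 tumours (median of 50). In the parts between the stretches the medians were -0.10 (n = 12) and -0.17 (n = 29), and over the rest of chromosome 11 the median was -0.12 (n = 761).

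**Figure D3:**
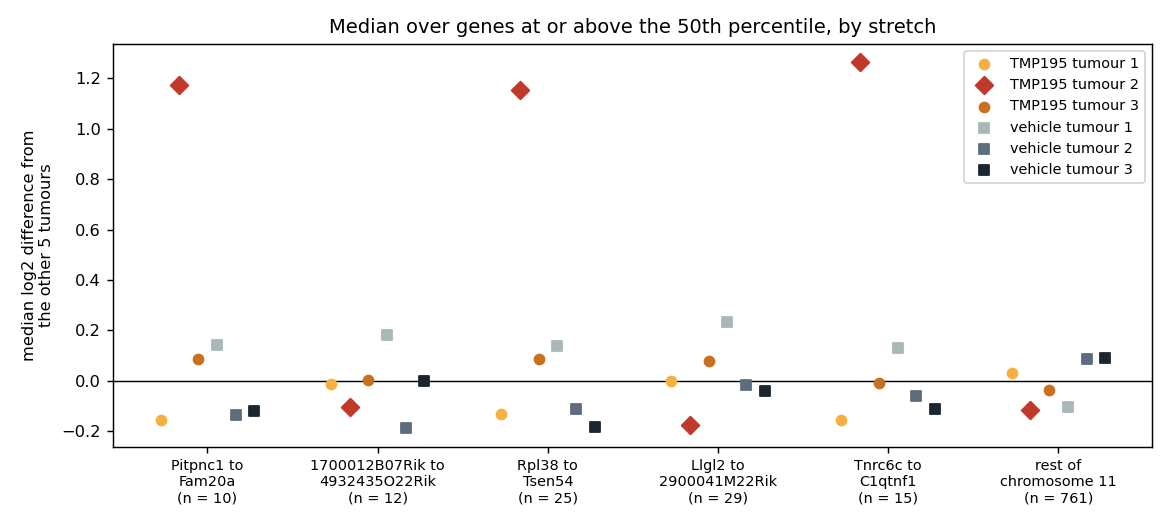
Median log2 difference of each tumour from the median of its other 5 tumours, over genes at or above the 50th percentile of intensity, for the 3 stretches, the parts between them and the rest of chromosome 11. TMP195 tumour 2 (red diamonds) stands at 1.17, 1.15 and 1.26 in the stretches and below 0 elsewhere, while no other tumour leaves the band from -0.19 to 0.23.

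The rest of chromosome 11 did not share the shift. Of its 1413 genes 91 were raised in TMP195 tumour 2, or 6.44%, and 135 were lowered, or 9.55%. Among chromosomes with more than 9 genes measured, the share raised in that tumour ran from 6.81% on chromosome 8 to 13.2% on chromosome 18, with chromosome 11 as a whole at 9.79%.

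Several raised genes had more than 1 probe set naming them alone. For 6 such genes, Tk1, Gprc5c, Socs3, Atp5h, Rpl38 and Sumo2, all 12 further probe sets were also highest in TMP195 tumour 2. The further probe set of Tk1 differed by 2.18 and that of Gprc5c by 1.77, against 2.06 and 1.76 for those used. The further probe set of Socs3 differed by 0.61, against 1.26. Those of Rpl38 differed by 0.71 to 0.79 and those of Sumo2 by 0.78 to 0.86. Rpl38, Sumo2 and Atp5h have near-identical processed copies elsewhere in the genome, so their signal may mix copies. BC006965 and Dnah17 had further probe sets and were raised in none, with differences of -0.36 and 0.12.

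The other 5 tumours showed no comparable shift in the 3 stretches, which were drawn around genes high in TMP195 tumour 2. Over their 81 genes the median difference was 0.95 in TMP195 tumour 2 and from -0.14 to 0.12 in the other 5. The interval's median difference, each tumour against its own other 5, was -0.05 in TMP195 tumour 1 and 0.05 in TMP195 tumour 3. It was 0.13 in vehicle tumour 1, -0.08 in vehicle tumour 2 and -0.08 in vehicle tumour 3. In TMP195 tumour 1, 1 gene was raised and 2 were lowered, where 1.67% and 2.62% of all genes were. In TMP195 tumour 3, 1 gene was raised and 0 were lowered, where 2.35% and 1.94% of all genes were. Vehicle tumour 1 had 10 raised genes, or 6.67%, against 3.17% of all genes, and 3 lowered genes, against 1.94%. Of its 10 raised genes 8 lay between the stretches. Vehicle tumour 2 had 15 lowered genes, or 10.0%, against 4.6% of all genes, and 1 raised gene, against 5.25%. Vehicle tumour 3 had 6 raised and 5 lowered genes, where 2.34% and 2.72% of all genes were. The comparison tumours of these 5 include TMP195 tumour 2, which is 1 of the 5 values behind each median. A raised call also asks a tumour to lie above TMP195 tumour 2, which was highest in 60 of the 81 genes of the stretches. In those genes no other tumour could be called raised, so these raised counts cannot show whether another tumour shared the blocks.

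**Figure D4:**
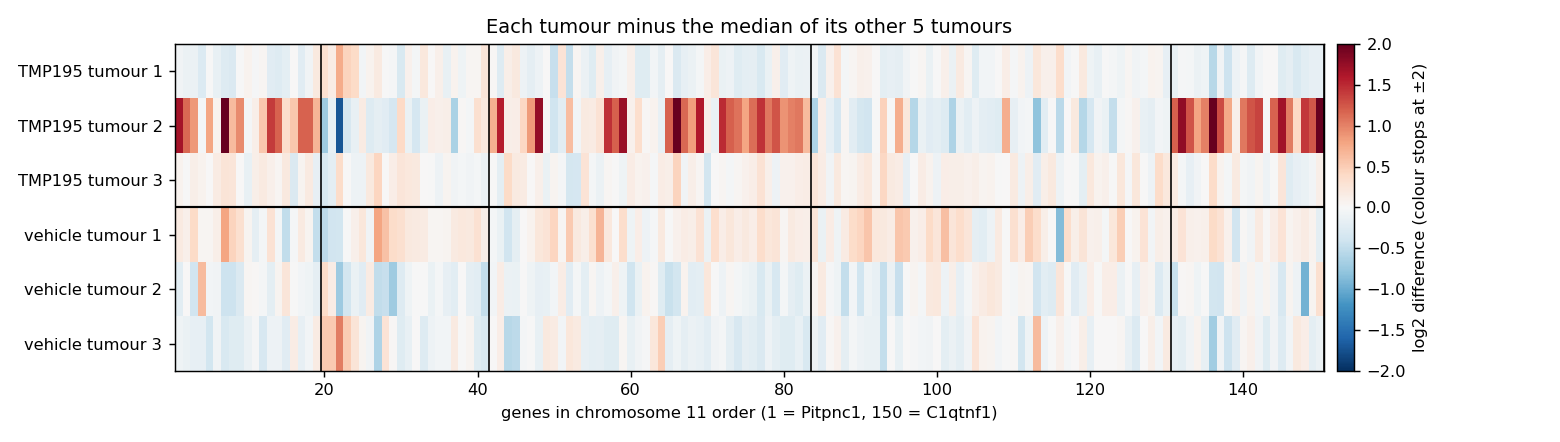
Colour map of each tumour's log2 difference from the median of its other 5 tumours, with the 150 genes in chromosome order from left to right and vertical lines at the ends of the 3 stretches. Broad red blocks appear in the row of TMP195 tumour 2, with interval medians between -0.08 and 0.13 in the other 5 rows.

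The genes at the extremes differed between the other tumours. In TMP195 tumour 1 the highest genes were Abca8a (0.74 above the median of its other 5) and Abca9 (0.45), and the lowest Tk1 (-0.55) and Cd300ld (-0.47). In TMP195 tumour 3 Cdr2l (0.45) and Kcnj16 (0.44) were highest, and Trim80 (-0.37) and Cd300ld (-0.36) lowest. In vehicle tumour 1 Prkca and Kcnj16 were highest, each by 0.79, and St6galnac2 (-0.87) and 1700012B07Rik (-0.52) lowest. In vehicle tumour 2 Cacng1 (0.64) and 1700012B07Rik (0.37) were highest, and Lgals3bp (-0.95) and Abca8a (-0.73) lowest. Cacng1 is the calcium channel subunit of skeletal muscle, and the muscle list averaged 8.32 in vehicle tumour 2 and from 4.77 to 5.25 in the other 5 tumours; its part in the value was not tested. In vehicle tumour 3 Abca8a (1.03) and Cygb (0.63) were highest, and Tk1 (-0.69) and Kcnj16 (-0.62) lowest. The run 1700012B07Rik to Abca9 in vehicle tumour 3, with 3 genes, was the only run of raised genes inside the interval outside TMP195 tumour 2. That tumour had the highest fibroblast and adipocyte levels, at 10.14 and 8.61, and their part in the run was not tested.

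Markers of mammary epithelium were high in every tumour, and TMP195 tumour 2 lay within the range of the others. The 8 epithelial markers, such as Epcam and Krt8, averaged 10.46 in TMP195 tumour 2, 10.51 and 10.39 in the other TMP195 tumours and 10.36, 10.50 and 10.50 in the vehicle tumours. Endothelial markers averaged 7.01 in TMP195 tumour 2 and 6.62 to 7.02 in the others. T cell markers averaged 4.70 in TMP195 tumour 2, the highest, and 4.20 to 4.49 in the others. B cell markers, of which 3 of 4 were measured, averaged 2.99 in TMP195 tumour 2 and 2.86 to 3.00 in the others.

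The study's own comparison is dosing, TMP195 against vehicle. With all 6 tumours, limma passed no gene of the interval at an adjusted p of 0.05, and 0 of 19937 genes in all, or 0%. At an unadjusted p under 0.05 it gave 3 of the 150 genes, where 2.52% of all genes did. The median difference, TMP195 minus vehicle, was 0.09 over the interval and -0.0014 over all genes. In the 3 stretches 66 of 81 genes were higher under TMP195, with a median of 0.33, where 9863 of all 19937 genes were higher. The stretches were drawn around genes high in 1 of these 3 TMP195 tumours. Grb2 averaged 7.78 ± 0.57 under TMP195 and 7.47 ± 0.13 under vehicle (SD, n = 3 each), and Tk1 averaged 8.51 ± 1.17 under TMP195 and 7.78 ± 0.35 under vehicle. All 3 TMP195 tumours lay above all 3 vehicle tumours in 6 genes, or 4.0%, against 3.47% of all genes, and below them in 3 genes, or 2.0%, against 3.21%. These values include the tumour for which the interval was chosen.

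With TMP195 tumour 2 left out, TMP195 tumours 1 and 3 were compared with the 3 vehicle tumours. These 5 tumours had served together as the comparison for TMP195 tumour 2, and the choice of genes did not use their dosing groups. Over the 81 genes of the stretches the median difference was -0.018, with 39 higher and 42 lower under TMP195. Over all genes measured it was -0.007, with 9446 higher and 10491 lower. Over the 150 genes of the interval it was -0.0056. No gene passed limma's adjusted p of 0.05, in the interval or among all 19937 genes (0%, smallest adjusted p 0.173), and 2 of 150 had an unadjusted p under 0.05, where 2.9% of all genes did. The 95% intervals around single genes had a median half-width of 0.32, so at a typical gene smaller differences could not be resolved. Some genes had narrower and some wider intervals, and none is adjusted for the number of genes tested. Grb2 averaged 7.47 ± 0.20 (SD, n = 2) under TMP195 and 7.47 ± 0.13 (SD, n = 3) under vehicle.

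The 5 genes with the smallest unadjusted p in those tumours had adjusted p values of 1.00 in limma. Dnaic2, a dynein chain of cilia, was at 3.84 and 4.10 in TMP195 tumours 1 and 3, against 3.45, 3.71 and 3.29 in the vehicle tumours, a difference of 0.49 ± 0.16 (SE). Kif19a, a kinesin of cilia, was at 4.68 and 4.65 in TMP195 tumours 1 and 3, against 4.43, 4.48 and 4.08 in the vehicle tumours, a difference of 0.34 ± 0.14. Both TMP195 tumours lay above every vehicle tumour in these neighbours, at low intensity. Cd300ld differed by -0.43 ± 0.17, Smim5 by 0.21 ± 0.09 and Timp2 by -0.20 ± 0.09. Groups without overlap were found in 8 genes that were higher and 11 that were lower under TMP195, or 5.33% and 7.33%, against 7.18% and 8.07% of all genes.

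**Figure D5:**
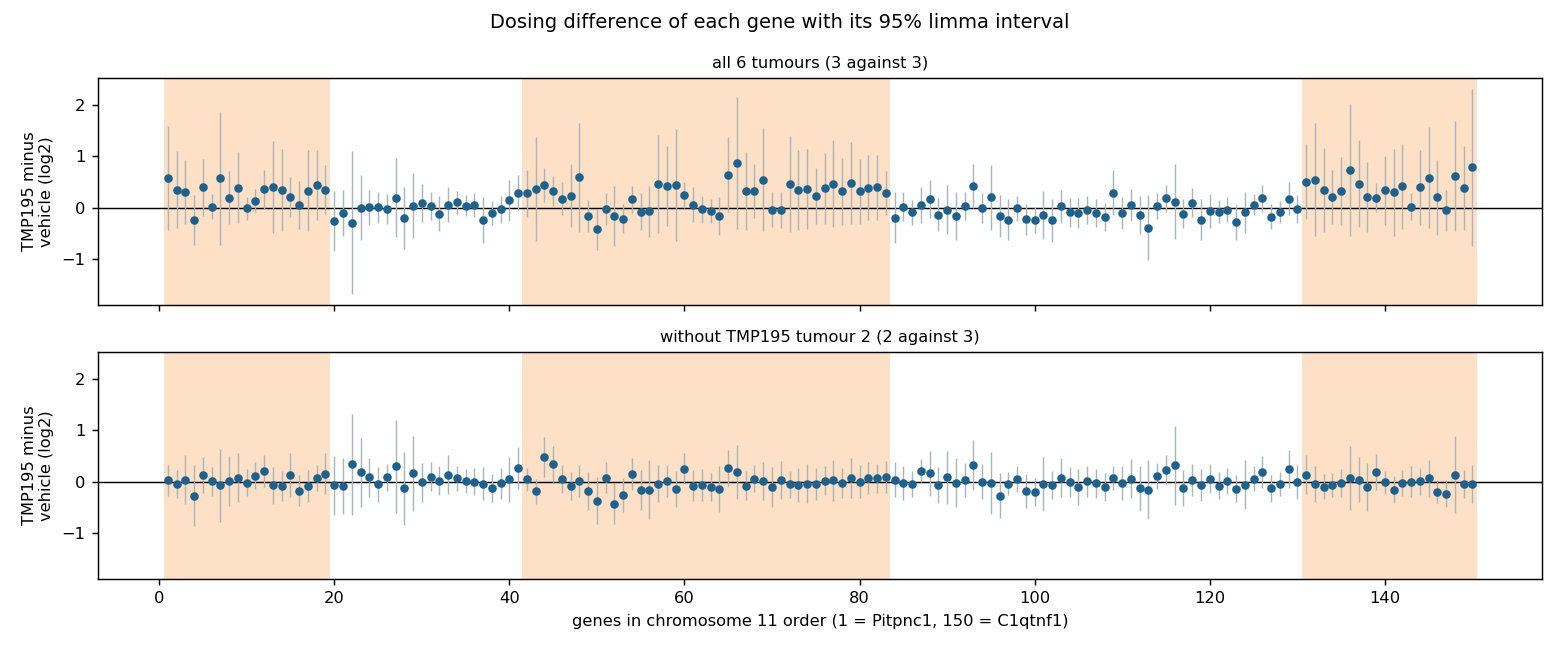
Difference in log2 intensity, TMP195 minus vehicle, for each of the 150 genes in chromosome order, with its 95% limma interval as a vertical line. The upper panel uses all 6 tumours and the lower panel leaves out TMP195 tumour 2; in the shaded stretches the median is 0.33 above and -0.018 below.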

How the data were processed

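RNA of 6 whole tumours, 3 from TMP195-dosed and 3 from vehicle-dosed mice, was hybridised to Affymetrix arrays. The deposited values are array signal intensity from RMA, and the submitters' processing notes name Affymetrix Power Tools; its version and any filter are not stated there. The table holds 27359 probe sets. Its scale is unstated and was read as linear, since every value is above 0, column medians run from 44.8 to 46.4 and the highest value is 8873. Whether probe sets were centred is unknown, and the range shows no centring.

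The platform's annotation gave 21784 probe sets 1 gene, 1620 several and 3955 none. A RefSeq table (GRCm38.p6), entered by Entrez ID, served only to order genes. Log2 intensities were compared tumour by tumour. Dosing was tested with limma 3.58.1 in R 4.3.3 (lmFit, eBayes, two-sided, Benjamini-Hochberg over 19937 genes), after a test on simulated data. Tables and plots were made in Python 3.11.15 (numpy 2.4.6, pandas 2.3.3, matplotlib 3.10.9).

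The interval, gene lists, thresholds and tests were chosen with earlier results of these data known. Named by rule were the cancer list, the 12 highest genes of TMP195 tumour 2, its 8 lowest unraised genes at or above the 50th percentile, run ends, genes beside the interval, genes with several probe sets, the 5 of smallest p without TMP195 tumour 2, and the 2 highest and 2 lowest of each other tumour. Other genes were named after their values were seen. Alternatives changed the reference, the threshold, the normalization, the prior and the filter, added a replicate block, or left out each tumour in turn.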

Additional observations from a re-analysis of the deposited data

How the results depend on the processing

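The count of raised genes in TMP195 tumour 2 was 61 against the mean of the other tumours, 63 with median centring, 62 with cyclic loess, 58 of 128 without dim genes and 62 with all probe sets of a gene averaged. Of all genes, the share raised under these settings was 8.78%, 9.14%, 8.64%, 10.1% and 8.59%, in that order. The interval's count was 65 at 1.2-fold, where 13.5% of all genes were raised, and 56 at 1.5-fold, where 4.33% were. With each other tumour left out the count ran from 59 to 63, against 62. The share of all genes then ran from 8.44% to 9.35%, against 8.6%. The interval's median difference ran from 0.097 to 0.17, against 0.12. Under every dosing alternative that left more than 1 tumour in each group, limma passed 0 genes of the interval. At an unadjusted p under 0.05 limma gave 1 to 7 genes of the interval. Of all genes, 2.52% did so in the main comparison of all tumours and 2.9% in that without TMP195 tumour 2. The share of all genes under each alternative was not counted. Same-numbered tumours did not deviate together over all genes (correlations -0.212, -0.063 and -0.097 for numbers 1, 2 and 3). Such correlations cannot show whether the numbers mark pairs, for instance of a shared day or litter. The main fits used no pairing. With a replicate block, 2 genes had an unadjusted p under 0.05 using all tumours and 4 without TMP195 tumour 2, with medians of 0.093 and -0.040. With each tumour left out in turn, the median dosing difference ran from -0.0056, without TMP195 tumour 2, to 0.156, without vehicle tumour 1. In the comparison without TMP195 tumour 2 it ran from -0.041, without TMP195 tumour 3, to 0.054, without vehicle tumour 1, and was 0.035 without TMP195 tumour 1; the cause was not tested. A single TMP195 tumour left in a fit is assumed to vary like the others. Rpl38 was 0.74 with median centring, 0.77 with cyclic loess and 0.74 with its probe sets averaged, and Socs3 was 0.91 with its probe sets averaged. Background correction could not be varied from the table used here.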

Other observations

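Outside the interval, the runs of raised genes in TMP195 tumour 2 included the homeobox genes Hoxb5 to Hoxb2 on the same chromosome, with 4 genes and a median difference of 1.05, and 4 genes from Tmem119 to Ssh1 on chromosome 5, with a median of 0.46. Inside the interval, 2 probe sets that name the same 3 Cd300ld genes together differed by -0.006 and 0.082 in that tumour, and were part of no count.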
